A study of Mus musculus with 32 samples.

Results

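The 3 Period genes Per1, Per2 and Per3 and the cryptochrome genes Cry1 and Cry2 encode the repressors of the mammalian circadian clock. Their transcripts were measured in mouse lung as 5 rows of a table of 41687 rows, found by Ensembl gene identifier. Lungs came from 6 wild-type (WT) adult C57b/6 mice and 6 adult Bmal1 knock-outs (KO), all bred in-house, 8 to 18 weeks old and labelled female. Each RNA was prepared as a PolyA library (selection of polyadenylated RNA) and as a RiboZero library (pull-down of ribosomal RNA), both from 200 ng, and mice 3 to 6 of each genotype also as a NoSelect library (no selection, 15 ng, combined from 6 preparations). This gave 6 WT and 6 KO libraries in RiboZero and in PolyA and 4 WT and 4 KO libraries in NoSelect, 32 in all. The design of the knock-out allele, the tissues it covers and the clock time of collection were not given in the sources used here.

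In the clock, the proteins CLOCK (or its relative NPAS2) and BMAL1, the product of Arntl, bind DNA elements called E-boxes and activate Per and Cry genes. PER and CRY proteins accumulate, join in a complex, enter the nucleus and repress CLOCK and BMAL1, which closes a daily feedback loop. CRY1 and CRY2 are the stronger repressors, PER1 and PER2 carry them to their target, and PER3 is the Period protein whose loss disturbs the core rhythm least. REV-ERB proteins (from Nr1d1 and Nr1d2), which are themselves driven by BMAL1, repress Arntl, Npas2 and Cry1 through ROR elements, and PAR bZIP proteins act through D-boxes. The lung has a strong rhythm of its own.

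Per1 (ENSMUSG00000020893) lies on the plus strand at chr11:69095217-69109960 of GRCm38. Per2 (ENSMUSG00000055866) lies on the minus strand at chr1:91415982-91459324, Per3 (ENSMUSG00000028957) on the minus strand at chr4:151003652-151044665, Cry1 (ENSMUSG00000020038) on the minus strand at chr10:85131700-85185064 and Cry2 (ENSMUSG00000068742) on the minus strand at chr2:92403646-92434043. Per3 overlaps the annotated gene Camta1 on the same strand, and Cry2 overlaps the antisense transcript D930015M05Rik. Of all 31-base words in the transcripts, 0.466% of those of Per3 and 0.303% of those of Cry2 also occur in another gene, and 0 of those of Per1, Per2 and Cry1.

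Promoters were available from RefSeq (GRCm38.p6) for 4 of the 5 members, without Per2. The stretches shown run 5′ to 3′ from 250 bases before the annotated start to position -11, 240 bases without an annotated exon. They are shown because BMAL1, whose gene the KO targets, acts through E-boxes, and capitals mark matches to an E-box (CACGTG), to its variant AACGTG or to a D-box (TTATGTAA or TTATGCAA), searched on both strands.
Per1, chr11:69098699-69098938, plus strand: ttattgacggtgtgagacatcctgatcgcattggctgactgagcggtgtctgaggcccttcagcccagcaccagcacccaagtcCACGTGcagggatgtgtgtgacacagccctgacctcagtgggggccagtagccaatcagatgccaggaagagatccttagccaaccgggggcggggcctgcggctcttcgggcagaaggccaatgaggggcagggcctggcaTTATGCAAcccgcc
Per3, chr4:151044676-151044915, minus strand: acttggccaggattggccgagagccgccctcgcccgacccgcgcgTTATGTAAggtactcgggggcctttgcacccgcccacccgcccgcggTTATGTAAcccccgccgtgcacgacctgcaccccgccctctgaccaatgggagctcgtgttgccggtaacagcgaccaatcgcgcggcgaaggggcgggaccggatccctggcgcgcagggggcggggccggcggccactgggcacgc
Cry1, chr10:85185065-85185304, minus strand: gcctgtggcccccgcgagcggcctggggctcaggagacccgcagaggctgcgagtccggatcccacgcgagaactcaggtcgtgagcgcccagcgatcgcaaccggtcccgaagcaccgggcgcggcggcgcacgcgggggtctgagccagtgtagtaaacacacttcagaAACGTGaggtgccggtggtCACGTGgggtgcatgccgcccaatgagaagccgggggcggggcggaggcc
Cry2, chr2:92434080-92434319, minus strand: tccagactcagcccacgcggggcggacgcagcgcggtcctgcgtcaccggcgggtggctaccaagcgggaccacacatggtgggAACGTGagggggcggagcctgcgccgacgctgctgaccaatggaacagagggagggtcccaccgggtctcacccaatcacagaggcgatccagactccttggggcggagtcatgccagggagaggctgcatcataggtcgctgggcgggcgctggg

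Cry1 carried both an E-box, at positions -60 to -55 from its start, and the AACGTG variant, at -79 to -74. Cry2 carried the variant alone, at -166 to -161. Per1 carried an E-box at -166 to -161 and a D-box at -24 to -17, while a second annotated Per1 start had no match to any motif searched. Per3 carried 2 D-boxes, at -205 to -198 and -158 to -151, and no E-box. Among 32851 windows of the 250 bases before a start, 6.02% held the E-box, 3.85% the variant and 1.5% a D-box. The ROR element TAGGTCA (2.23% of windows) and the cAMP response element TGACGTCA (1.55%) had no match in these stretches of the members. A match is a description of letters and not a site of binding.

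The table gave 11638590 to 115059730 counts per library, and the members had between 292 and 11145 counts each. Replicate libraries differed by more than sampling noise (chi-square per degree of freedom over rows from 6.67 to 65.9 in 72 pairs). All 10 lung markers had at least 10 counts in every library. The NoSelect library of KO mouse 6 is labelled liver, but its 12 liver markers summed to 6.86 CPM (counts relative to the library total) and its lung markers to 8724 CPM, against 6116 CPM in the lowest NoSelect KO library. KO mouse 6 is labelled female, but all 4 Y-linked genes measured had at least 10 counts in its 3 libraries, and none of them did in any other library. Its Xist level, a female marker, was 0.099 CPM in RiboZero, 0.072 in PolyA and 0.139 in NoSelect. Every other library had at least 413 CPM of Xist, so the sex markers of this mouse are those of a male. The tests and levels below were repeated without this mouse, and the values without it are given for the KO effect of Cry1, Cry2 and Per2 and wherever leaving it out changed a call or moved a value by over 1.5 times. The search for genes that followed each member was not repeated without it. Arntl, the targeted gene, was lower in KO, with 38.9 ± 3.61 CPM in WT and 21.9 ± 1.66 in KO (mean ± SD, n = 6 each) in RiboZero and 35.4 ± 2.63 against 29.3 ± 2.18 in PolyA. In NoSelect it had 10.1 ± 0.302 against 6.28 ± 0.355 CPM (n = 4 each). The PolyA libraries of the genotypes overlapped for Arntl (KO up to 32.4 CPM, WT from 31.9 CPM), and the deleted part of the gene is not given, so this is only a partial check of the labels. In PolyA the call of Arntl (log2 -0.27, adjusted p = 0.0262 by edgeR) was lost without KO mouse 6 (-0.24, adjusted p = 0.0611).

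Levels below are CPM scaled by TMM (trimmed mean of M values) within a preparation, so they are not comparable between preparations, where the share of ribosomal RNA differs. Fold changes are KO over WT from edgeR's quasi-likelihood test, with a standard error (SE) on the log2 scale and p-values adjusted by Benjamini-Hochberg over all rows tested, and a row was called at an adjusted p under 0.05. The 3 preparations come from the same mice, so they are repeated measurements and not independent tests. In bulk tissue, a change in the number of cells of a type and a change of RNA per cell cannot be told apart.

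Cry1 and Per2 were higher in KO lung, by 2.60- to 2.90-fold and 2.28- to 2.69-fold. Cry2 stood at 1.25- to 1.35-fold of WT and was called in NoSelect but not in RiboZero or PolyA, and neither Per1 nor Per3 was called in any preparation. The calls thus covered 2 of 5 members in RiboZero, 2 in PolyA and 3 in NoSelect, all of them higher in KO. Over all rows, 3.46% were called in RiboZero (1.84% higher), 4.03% in PolyA (1.62% higher) and 2.17% in NoSelect (1.19% higher). The median absolute log2 fold change of the members was 0.48 for RiboZero, 0.58 for PolyA and 0.44 for NoSelect, against 0.09, 0.10 and 0.09 over all rows tested.

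**Figure D1:**
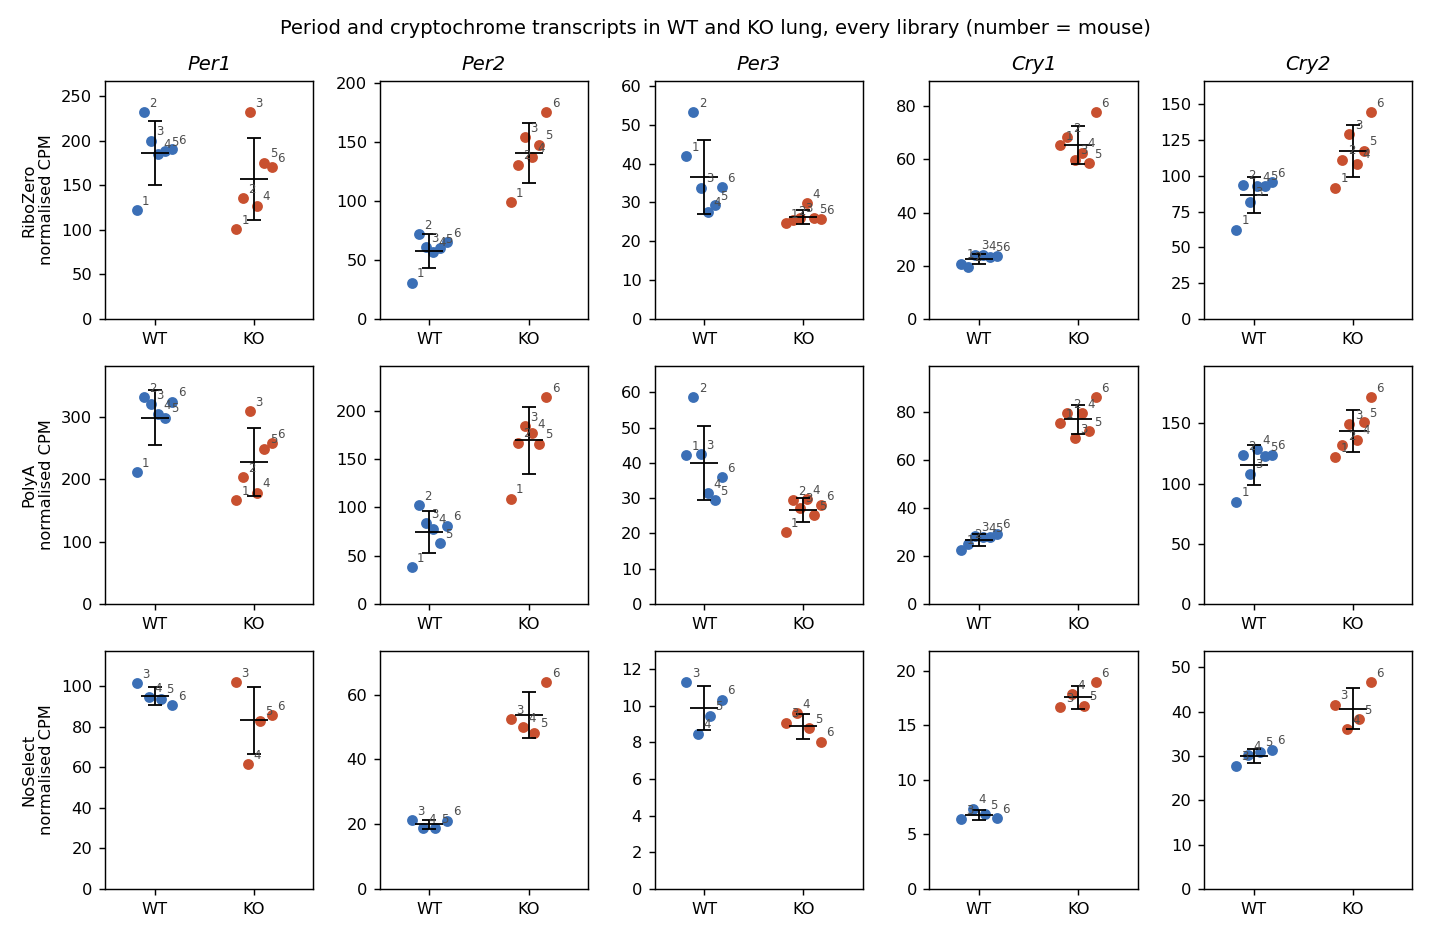
Normalised CPM (vertical axes, from 0) of each member in every library, by preparation (rows) and genotype; numbers name the mouse, and black bars give the mean ± SD. Cry1 and Per2 libraries of KO mice lie above all WT libraries in each preparation, while Per1 and Per3 libraries overlap between the genotypes.

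Cry1 encodes the cryptochrome with the strongest repressor activity. In RiboZero libraries the WT mice had 19.6 CPM at the lowest, 23.5 at the median and 24.1 at the highest, and the KO mice 58.5, 63.9 and 77.8 CPM. In PolyA libraries the corresponding values were 22.6, 27.9 and 29.3 CPM in WT and 69.1, 77.5 and 86.3 CPM in KO. In NoSelect libraries the WT mice 3 to 6 had 6.38, 7.34, 6.85 and 6.47 CPM and the KO mice 16.6, 17.8, 16.8 and 18.9 CPM. Every KO library was thus above every WT library in each preparation, a pattern that 1.36% of rows had for RiboZero, 1.31% for PolyA and 4.89% for NoSelect (2.89%, 3.21% and 9.51% when rows separated in the other direction are counted too). The log2 fold change was 1.53 (SE 0.0763, adjusted p = 3.52e-07) in RiboZero, 1.52 (SE 0.0709, adjusted p = 1.85e-07) in PolyA and 1.38 (SE 0.0612, adjusted p = 2.5e-05) in NoSelect, by edgeR. In size, 99.5%, 99.3% and 99.0% of rows changed less than Cry1 in the same order. KO mouse 6 had the highest Cry1 level of all KO mice in each preparation. Without it the log2 fold change was 1.48 in RiboZero, 1.49 in PolyA and 1.34 in NoSelect, with calls in all 3.

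Cry2 encodes the other cryptochrome. The RiboZero libraries had 62.5 (lowest), 92.9 (median) and 95.7 CPM (highest) in WT and 91.7, 114 and 145 CPM in KO. The PolyA libraries had 84.9, 123 and 128 CPM in WT and 122, 143 and 172 CPM in KO. In both preparations 5 of 6 KO libraries lay above all WT libraries, the exception being KO mouse 1, which lay among the WT mice. The log2 fold change was 0.43 (SE 0.118, 95% interval 0.18 to 0.69, adjusted p = 0.0646 by edgeR) in RiboZero and 0.32 (SE 0.105, 95% interval 0.09 to 0.55, adjusted p = 0.12) in PolyA, and neither was called. In NoSelect, WT mice 3 to 6 had 27.79, 30.14, 30.95 and 31.37 CPM and KO mice 41.59, 36.01, 38.27 and 46.67 CPM, without overlap. Of all rows in NoSelect, 9.51% were without overlap and 4.89% had every KO library above every WT library. Cry2 was called there, with a log2 fold change of 0.44 (SE 0.08, adjusted p = 0.0317 by edgeR). This call was near its threshold: of the 8 fits without 1 library, 6 lost it, with adjusted p-values up to 0.101, and it remained without KO mouse 4 or KO mouse 6 (0.36 without the latter, adjusted p = 0.0299). Without KO mouse 6 the value was 0.36 in RiboZero (adjusted p = 0.109) and 0.27 in PolyA (adjusted p = 0.182). In RiboZero, Cry2 was called without KO mouse 1 (adjusted p = 0.0287) and with mice 3 to 6 alone (0.46, adjusted p = 0.0429), all by edgeR. DESeq2, another count model, called Cry2 in RiboZero (adjusted p = 0.00976) and in PolyA (adjusted p = 0.0469).

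Per2, which together with Per1 is required for a stable rhythm, had in RiboZero libraries 30.7 CPM at the lowest, 60.4 at the median and 71.8 at the highest in WT and 98.5, 142 and 175 CPM in KO. In PolyA libraries these were 37.8, 79.4 and 103 CPM in WT and 109, 172 and 214 CPM in KO. In NoSelect, WT mice 3 to 6 had 21.3, 18.8, 18.7 and 21.1 CPM and KO mice 52.4, 49.9, 48.2 and 63.9 CPM. The genotypes did not overlap in any preparation, although in PolyA the highest WT library (mouse 2) lay close to the lowest KO library (mouse 1). The log2 fold change was 1.28 (SE 0.179, adjusted p = 0.00152) in RiboZero, 1.19 (SE 0.21, adjusted p = 0.00711) in PolyA and 1.43 (SE 0.0938, adjusted p = 0.000285) in NoSelect, by edgeR. The mice numbered 1, the lowest of both genotypes in RiboZero and PolyA, are not among the NoSelect libraries. Without WT mouse 1 the log2 fold change was 1.16 in RiboZero and 1.07 in PolyA, and without KO mouse 6, the highest KO mouse, it was 1.21, 1.12 and 1.33 in RiboZero, PolyA and NoSelect. The call held in each of these fits.

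Per1 is the Period gene that also responds directly to stimuli such as glucocorticoids and cAMP. In RiboZero libraries it had 122 CPM at the lowest, 190 at the median and 232 at the highest in WT and 101, 153 and 232 CPM in KO. In PolyA libraries it had 212, 312 and 332 CPM in WT and 166, 226 and 309 CPM in KO, and in NoSelect 102, 94.7, 94.0 and 90.9 CPM in WT mice 3 to 6 and 102, 61.6, 83.2 and 85.9 CPM in KO mice. The genotypes overlapped in each preparation, with KO mouse 3 at the level of the WT mice, and the KO libraries below all WT libraries numbered 1 of 6 in RiboZero, 3 of 6 in PolyA and 3 of 4 in NoSelect. The log2 fold change was -0.25 (95% interval -0.66 to 0.15, adjusted p = 0.561 by edgeR) in RiboZero, -0.39 (-0.73 to -0.06, adjusted p = 0.191) in PolyA and -0.20 (-0.49 to 0.10, adjusted p = 0.529) in NoSelect. An increase of the size seen for Per2 or Cry1 lies outside each of these intervals, while a decrease by up to 0.49 to 0.73 on the log2 scale lies inside. Single mice moved the value: it was -0.40 without KO mouse 3 and -0.15 without KO mouse 1 in RiboZero, and -0.31 without KO mouse 3 and -0.08 without KO mouse 4 in NoSelect, with no call in any of these fits.

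Per3 had the lowest level per kilobase of the Period genes. In RiboZero libraries it had 27.6 CPM at the lowest, 33.8 at the median and 53.3 at the highest in WT and 24.6, 25.8 and 29.9 CPM in KO. In PolyA libraries these were 29.5, 39.0 and 58.7 CPM in WT and 20.4, 27.7 and 29.6 CPM in KO, and NoSelect had 11.3, 8.48, 9.44 and 10.3 CPM in WT mice 3 to 6 and 9.06, 9.60, 8.76 and 8.03 CPM in KO mice. In RiboZero and in PolyA, 5 of 6 KO libraries lay below all WT libraries, and in NoSelect 1 of 4. The log2 fold change was -0.48 (SE 0.138, adjusted p = 0.0821 by edgeR) in RiboZero, -0.58 (SE 0.154, adjusted p = 0.055) in PolyA and -0.16 (SE 0.0913, adjusted p = 0.457) in NoSelect, where it was -0.09 without WT mouse 3. For mice 3 to 6 alone, the animals of NoSelect, the value was -0.21 (adjusted p = 0.29) in RiboZero and -0.34 (adjusted p = 0.159) in PolyA. WT mouse 2 had the highest Per3 level in both preparations and also the highest Nr1d1 and Nr1d2 levels of all WT mice (Nr1d1 29.7 CPM in RiboZero, against 9.23 to 14.6 CPM in the other WT mice). Without WT mouse 2 Per3 was called in PolyA (adjusted p = 0.049 by edgeR), as it was without WT mouse 4 or WT mouse 5, and in RiboZero it was called without WT mouse 4 (adjusted p = 0.0492). DESeq2 called Per3 lower in RiboZero (adjusted p = 0.0191) and in PolyA (adjusted p = 0.00532), and not in NoSelect. Without KO mouse 6, neither Per1 nor Per3 was called in any preparation by edgeR.

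**Figure D2:**
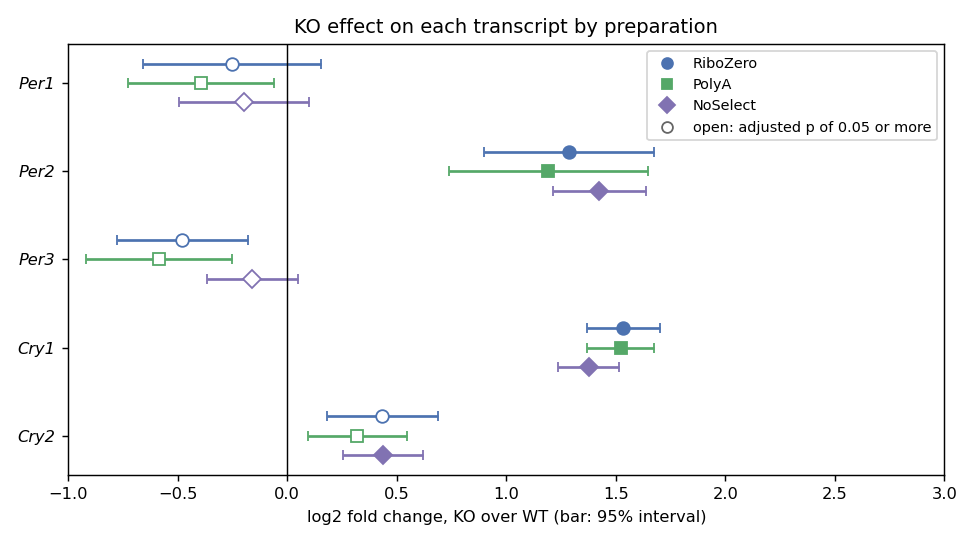
Log2 fold change of KO over WT (horizontal axis) with its 95% interval for each member and preparation; filled symbols were called, open symbols were not. Cry1 and Per2 lie between 1.19 and 1.53 in all preparations, Cry2 between 0.32 and 0.44, and Per1 and Per3 below 0.

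Whether the KO effect depended on how the library was made was tested with an interaction term. No member was called among 5 in any of the 3 pairs of preparations, and neither was any other row (0.00% of rows called in each pair, with 1.82%, 2.24% and 1.39% at an unadjusted p under 0.05 for PolyA against RiboZero, PolyA against NoSelect and RiboZero against NoSelect). DESeq2 called 11, 13 and 9 rows in these pairs and no member. The lowest unadjusted p of a member was that of Per3, whose log2 effect was lower by 0.44 in PolyA than in NoSelect (difference -0.44, 95% interval -0.88 to -0.01, adjusted p = 1.00 by edgeR). With the mouse as a block, which uses that the same animals were prepared in different ways, this difference was -0.20, and with mice 3 to 6 alone -0.13. The Cry1 effect differed by 0.01 between PolyA and RiboZero (95% interval -0.22 to 0.23, and 0.02 without KO mouse 6) and by 0.12 between PolyA and NoSelect (-0.11 to 0.35). For Per2 the intervals were wider, from -0.67 to 0.53 between PolyA and RiboZero and from -0.84 to 0.33 between PolyA and NoSelect.

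The preparations themselves were compared over both genotypes, as differences of a member relative to the other rows. Counting rows that passed 0.05 after adjustment and differed by at least 1 on the log2 scale, 0 of 5 members were called in any pair, against 23.6% of rows in PolyA against RiboZero, 25.1% in PolyA against NoSelect and 4.30% in RiboZero against NoSelect. At an adjusted p under 0.05 alone, 81.1%, 79.1% and 45.9% of rows differed, and so did 1 of 5 members for PolyA against RiboZero (Per3, log2 -0.26, adjusted p = 0.0265 by edgeR), 4 of 5 for PolyA against NoSelect (all but Cry1) and 3 of 5 for RiboZero against NoSelect. Per1 had the largest difference among the members: it was lower by 0.90 on the log2 scale in RiboZero than in NoSelect (log2 -0.90, SE 0.13, adjusted p = 1.02e-05 by edgeR), or 0.537-fold, a change larger than that of 94.5% of rows. In PolyA it was lower than in NoSelect as well (log2 -0.59, SE 0.112, adjusted p = 7.69e-05). Per2 (log2 -0.38, adjusted p = 0.0121) and Cry2 (log2 -0.31, adjusted p = 0.00358) were also lower in RiboZero than in NoSelect. Cry1 differed by at most 0.09 on the log2 scale in any pair, with 95% intervals between -0.20 and 0.10, or by 0.12 in PolyA against NoSelect without KO mouse 6 (log2 -0.12, adjusted p = 0.0516 by edgeR). These counts and values come from the fit without the mouse as a term, although the same animals were prepared in different ways. NoSelect covers mice 3 to 6 alone, so in its pairs this fit compares unlike sets of animals. NoSelect libraries also came from 15 ng against 200 ng, were combined from 6 preparations and had more counts. In its pairs these differences and the lack of selection cannot be told apart. Against NoSelect, the mouse as a block gave a log2 of -0.80 for Per1, -0.28 for Per2 and -0.23 for Cry2 in RiboZero. For Per1 in PolyA it gave -0.49. With the mouse as a block, 3 of 5 members passed 0.05 for PolyA against RiboZero, as Per1 (log2 0.28, adjusted p = 2.91e-07, against 0.27 and 0.0535 without the block) and Cry1 (log2 -0.09, adjusted p = 0.00119, against 0.104 without the block) were added, and 4 of 5 in each of the other pairs. Per3 was the addition in RiboZero against NoSelect: with the block it was lower by 0.20 (log2 -0.20, adjusted p = 2.25e-05), where the fit without the block gave -0.11 (adjusted p = 0.42). The shares of all rows given above come from the fit without the block and are not given for the block. The member counts with the block are therefore not read as a result about the members.

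Compared between genes per kilobase of the longest annotated transcript, Per1 was the most abundant member in WT lung, followed by Cry2, Per2, Cry1 and Per3, in each preparation. In RiboZero libraries of WT mice the levels were 39.9 ± 7.68 CPM per kilobase for Per1, 21.8 ± 3.22 for Cry2, 9.86 ± 2.43 for Per2, 7.46 ± 0.625 for Cry1 and 6.10 ± 1.59 for Per3 (mean ± SD, n = 6). The libraries of Per1, Cry2 and Per2 did not overlap, while those of Per2 and Cry1, and of Cry1 and Per3, did. PolyA libraries of WT mice showed the same separations and overlaps, with 63.9 ± 9.50 CPM per kilobase for Per1 and 6.67 ± 1.77 for Per3. In NoSelect all neighbours were separate, from 20.4 ± 0.973 CPM per kilobase for Per1 over 7.56 ± 0.401 for Cry2, 3.42 ± 0.239 for Per2 and 2.23 ± 0.144 for Cry1 to 1.65 ± 0.20 for Per3 (n = 4).

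In KO lung the 4 more abundant members overlapped from one to the next in RiboZero and PolyA, but not in NoSelect, and Per3 lay below them in each preparation. In RiboZero libraries of KO mice Per1 had 33.6 ± 9.91 CPM per kilobase, Cry2 29.5 ± 4.57, Per2 24.1 ± 4.40, Cry1 21.6 ± 2.32 and Per3 4.38 ± 0.307. In NoSelect libraries of KO mice Per1 lay 1.74-fold above Cry2 and Per2 1.59-fold above Cry1, both without overlap, and only Cry2 and Per2 overlapped (1.11-fold). Without KO mouse 6 these 2 were separate as well. Cry1 lay 4.93-fold above Per3 in RiboZero, 5.73-fold in PolyA and 3.92-fold in NoSelect, without overlap, where the WT values were 1.22-, 1.33- and 1.36-fold. The place of Cry2 depended on the length used: per kilobase of all exons joined, it was at rank 4 in RiboZero and PolyA and at rank 3 in NoSelect in KO lung, while Per1 stayed at rank 1 and Per3 at rank 5.

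**Figure D3:**
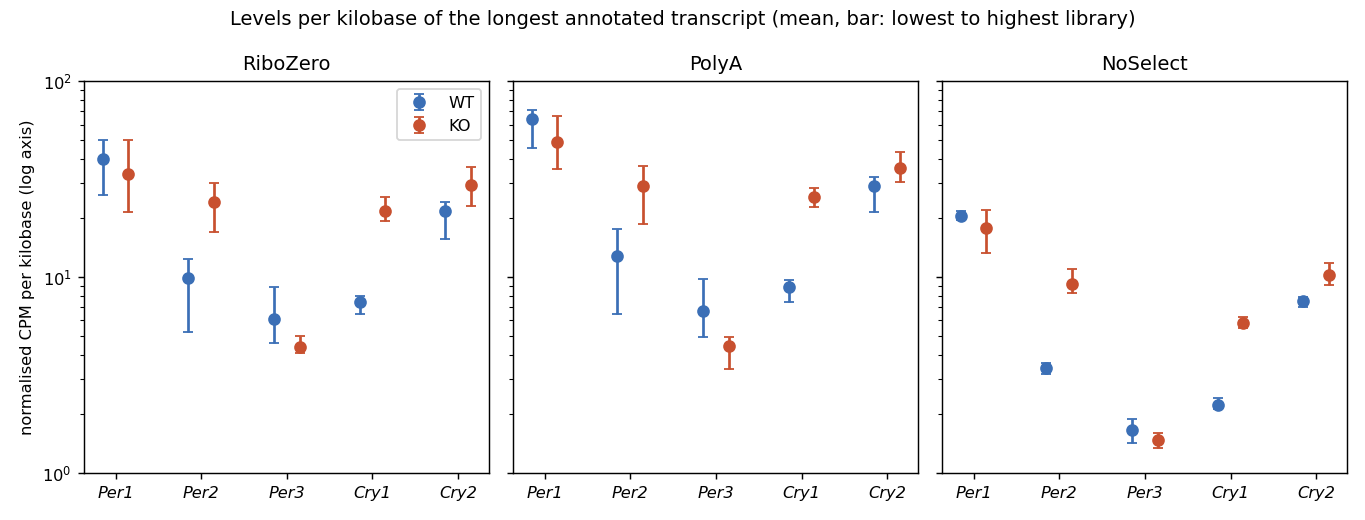
Normalised CPM per kilobase of the longest annotated transcript (log axis) of each member by preparation and genotype; points are means and bars run from the lowest to the highest library. Per1 is highest and Per3 lowest in each group, and in KO libraries Cry1 and Per2 lie nearer to Cry2 than in WT libraries; in NoSelect KO libraries Cry1 stays at 0.569 of Cry2.

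Ratios between members of the same library do not depend on how the library is scaled, and are given per kilobase. Cry1 stood at 0.345 of the Cry2 level in WT RiboZero libraries (range 0.273 to 0.438) and at 0.737 in KO (0.608 to 0.937). In PolyA the ratio of Cry1 to Cry2 was 0.308 in WT and 0.706 in KO, and in NoSelect 0.295 and 0.569, again without overlap. The ratio of Per1 to Per2, where the raised gene Per2 is the divisor, fell from 4.11 in WT to 1.37 in KO in RiboZero. It fell from 5.19 to 1.67 in PolyA and from 5.96 to 1.92 in NoSelect, without overlap in any preparation. The ratio of Per2 to Cry1 was 1.28 in WT and 1.102 in KO in RiboZero, 1.38 and 1.12 in PolyA and 1.53 and 1.58 in NoSelect, and the libraries of the genotypes overlapped. The ratio of Per1 to Per3 overlapped as well, with 6.60 in WT and 7.42 in KO in RiboZero.

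**Figure D4:**
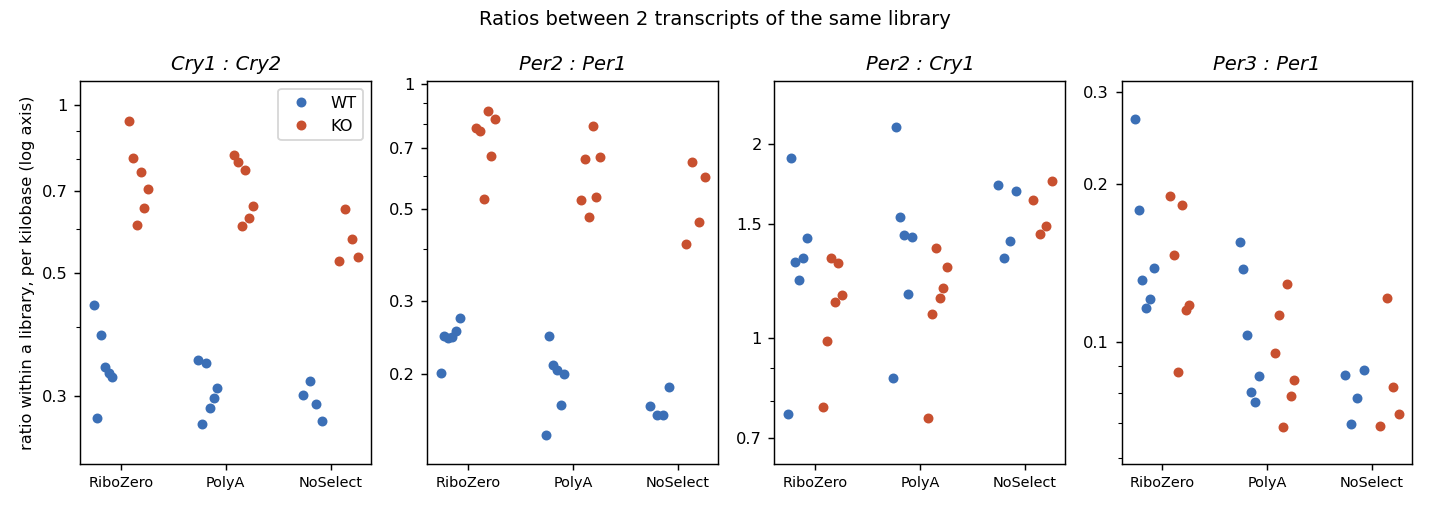
Ratios of pairs of members within each library, per kilobase (log axes), by preparation and genotype; each point is 1 library. Cry1 to Cry2 and Per2 to Per1 are higher in every KO library than in every WT library of the same preparation, while Per2 to Cry1 and Per3 to Per1 overlap.

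The members differed in how much they varied between mice of the same genotype. Per2 had an SD of 0.44 on the log2 scale over WT mice in RiboZero and 0.50 in PolyA, above that of 89.9% and 91.2% of rows, where the median row had 0.14 and 0.16. This rested on WT mouse 1: without it the SD was 0.13 in RiboZero (above that of 50.3% of rows) and 0.25 in PolyA (69.7%), and in NoSelect, which lacks that mouse, Per2 had 0.10 over WT mice against 0.11 for the median row. Cry1 had 0.12 and 0.14 over WT mice, close to the median row, and 0.08 in PolyA without WT mouse 1. Per1 had 0.42 and 0.34 over KO mice. Per3 had 0.35 and 0.36 over WT mice but 0.10 in RiboZero and 0.20 in PolyA over KO mice, the latter 0.09 without KO mouse 1. Leaving out KO mouse 6 took the SD of Cry1 over KO mice in RiboZero from 0.15 to 0.09, and in NoSelect that of Per2 from 0.18 to 0.06, of Per3 from 0.11 to 0.07, of Cry1 from 0.09 to 0.06 and of Cry2 from 0.16 to 0.10. Whether the spread differed between genotypes was not tested.

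The same mice stood out in both preparations that covered all 12. WT mouse 1 was the lowest WT mouse for Per1, Per2 and Cry2 in RiboZero and in PolyA, and KO mouse 1 the lowest KO mouse for the same 3 genes. WT mouse 1 was not low for Per3, where it had 41.9 CPM in RiboZero against a WT median of 33.8. KO mouse 6 was the highest KO mouse for Per2, Cry1 and Cry2, and KO mouse 3 for Per1. For Cry2 in WT mice, the mean absolute deviation of a mouse from its genotype was 0.17 on the log2 scale, and the RiboZero and PolyA deviations of the same mouse differed by 0.03 on average. For Per1 in KO mice these were 0.31 and 0.08, so the spread lay between animals more than between the libraries of an animal. Per3 in KO mice was the exception, with 0.11 and 0.12. The total counts of WT mouse 1 (18584897 in RiboZero, 38100812 in PolyA) and KO mouse 1 (25801192 and 33414439) were not the lowest of their groups. Their clock time of collection was not given, and its part in the spread was not tested.

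**Figure D5:**
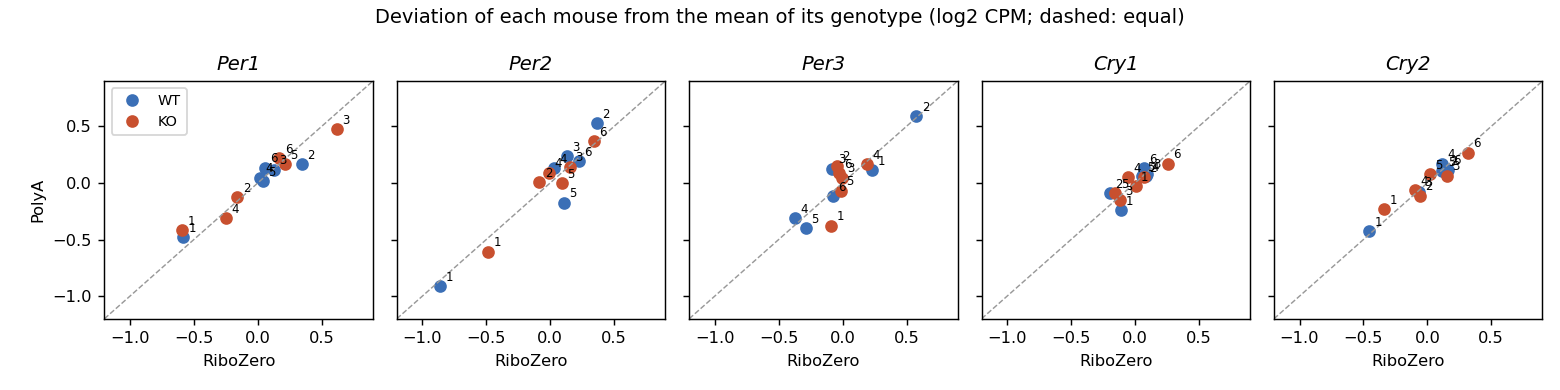
Deviation of each mouse from the mean of its genotype (log2 CPM) in RiboZero (horizontal) and PolyA (vertical) libraries; the dashed line marks equal values. Most mice lie along the line, with the mice numbered 1 at the lower left for Per1, Per2 and Cry2.

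The genes whose levels followed each member most closely were sought among 12465 rows, as a description, by the mean of Pearson's r over the 12 RiboZero, 12 PolyA and 8 NoSelect libraries. Cry1 was followed most closely by Npas2 (mean r 0.990), Nnat (0.985) and Slc16a10 (0.973), and Per2 by Eif4g3 (0.927), Fam19a1 (0.925) and Slc16a10 (0.911). Among the members, by the same measure, Per2 had 0.918 with Cry1 and 0.916 with Cry2, both above its value with Slc16a10. It had -0.207 with Per1 and -0.526 with Per3. These values include the difference between genotypes, which all libraries of a genotype share. Cry2 was followed by Unc119b (0.917), Tmc7 (0.917) and Eogt (0.891), Per1, among others, by Mir22hg (0.927) and Rhob (0.925), and Per3 by Atad3a (0.856), Gpld1 (0.844) and Pcsk6 (0.807). Taken within genotypes, over the RiboZero and PolyA libraries, the genes close to Per1 included Klf4 (mean r 0.919) and Ccnl1 (0.913). Per3 was then closest to Plxnb1 (0.849), Plekhg3 (0.841) and Nr1d2 (0.824), and Cry1 to Nucb2 (0.901), Hkdc1 (0.863) and Ahcyl2 (0.858). Per2 was closest to Abra (0.894), Cdr2 (0.892) and Prkab1 (0.891), and Cry2 to Mafg (0.947), Eva1c (0.946) and Sec14l1 (0.938).

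Among the members themselves, within genotypes, the mean r over RiboZero and PolyA was 0.874 for Per2 and Cry2, 0.808 for Per1 and Cry2 and 0.80 for Per1 and Per2. These values rested largely on the mice numbered 1, which were low for all 3 genes. Without them, over 10 libraries per preparation, they were 0.525, 0.511 and 0.478. The mean r of Per2 and Per3 was 0.20 with all mice and 0.65 without the mice numbered 1. Cry1 had a mean r of 0.36 with Per2 and of 0.45 with Cry2, and of -0.04 and 0.20 without these mice, although Cry1 and Per2 were both higher in KO. Per3 and Cry1 had a mean r of -0.43 in either case, but with all mice r was -0.62 in RiboZero and -0.24 in PolyA. Without KO mouse 6 the mean r of Cry1 was 0.23 with Per2, 0.24 with Cry2 and -0.55 with Per3. With so few mice these are descriptions only, and the closest genes named within genotypes include the mice numbered 1 as well.

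The rest of the clock was read from a list of 34 genes around the members. Of them, 4 were higher and 3 lower in KO in RiboZero, 2 higher and 4 lower among 33 tested in PolyA, and 3 higher and 3 lower in NoSelect. These are 20.6%, 18.2% and 17.6% of the list, against 3.46%, 4.03% and 2.17% of all rows. The list includes Arntl, the gene the KO targets, which is among the lower genes in each preparation, so these shares are not free of the design. The median absolute log2 fold change of the list was 0.10, 0.07 and 0.06, against 0.09, 0.10 and 0.09 over all rows. Without KO mouse 6, 7, 5 and 5 genes of the list were called, and the call lost in PolyA was that of Arntl. Within the positive arm, Npas2, the CLOCK relative, rose by a log2 of 1.71 in RiboZero, 1.80 in PolyA and 1.62 in NoSelect (adjusted p at most 4.22e-05 by edgeR). Clock was not called in any preparation. The REV-ERB genes fell: the log2 fold changes of Nr1d1 were -4.86 (RiboZero), -5.40 (PolyA) and -4.77 (NoSelect), and those of Nr1d2 were -3.44, -3.52 and -3.02 (adjusted p at most 1.50e-05 by edgeR).

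Tef, a PAR bZIP gene that acts on D-boxes, was higher in RiboZero (log2 0.35, adjusted p = 0.0206 by edgeR) and NoSelect (0.38, adjusted p = 0.0391, or 0.36 and 0.0665 without KO mouse 6). In PolyA it stood at 0.26 and was not called (adjusted p = 0.0575). Bhlhe41, another E-box repressor, was lower in PolyA (log2 -0.83, adjusted p = 0.00126). It was not called in RiboZero (-0.39, adjusted p = 0.0504) or NoSelect (-0.40, adjusted p = 0.0589), where it was near the threshold. Of 14 kinases, ligases and phosphatases that act on PER or CRY proteins, 1 was called in RiboZero and 0 in PolyA and NoSelect. Over these 14 genes the median size of the log2 change was 0.05 for RiboZero, 0.04 for PolyA and 0.03 for NoSelect. Of the 4 partners of the complex, 0 were called in each preparation. At these shares of all rows, the counts among 14 and 4 genes do not set either set apart.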

How the data were processed

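RNA sequencing of lung RNA was analysed in 32 libraries from 12 mice. The estimated counts, by gene, are those the authors deposited, and 12.81% of values were not whole; the submitters' processing notes name Salmon 1.4.0, UMI-tools 1.1.1 and GRCm38 without stating their roles, and per the labels' protocols the kits are stranded and the adapters carry molecular identifiers. Whether duplicates were removed before counting, and the annotation used, are not given in the sources used here. The columns were matched to libraries by name, with 0 left over.

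Estimated counts were rounded and tested in R 4.3.3 with edgeR 4.0.16 (TMM, filterByExpr, glmQLFit, glmQLFTest, Benjamini-Hochberg over all rows). KO and WT libraries of the same preparation were compared. Interactions and differences between preparations were fitted over pairs of preparations, the latter adjusted for genotype, and there a call needed an absolute log2 of at least 1. Intervals are 95% intervals from the moderated degrees of freedom. Coordinates, lengths and overlaps come from GENCODE M21 (GRCm38), which may differ from the authors' annotation, and promoters from RefSeq. The likeness of genes was ranked on log2 CPM (prior count 2), for rows with a mean log2 CPM of at least 0 in every preparation. The members were left out of this ranking, and up to 3 genes were named per member. Of the clock list, genes called in at least 1 preparation were named. Some genes that these rules select are not reported here, and list counts include them. The fits were tested on simulated counts.

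Libraries of the same mouse are paired across preparations by the labels, and their deviations from group means correlated at 0.390 to 0.772 over 12770 rows. A WT mouse and a KO mouse with the same number are different animals. The mice are separate animals of a genotype by their numbers. In NoSelect the gene Lars2 took 11.1% of counts on average, and 3936 rows of the table carry transcript identifiers. In NoSelect these rows took from 57.4% (WT mouse 4) to 60.3% (KO mouse 3) of the counts of a library, against at most 1.47% in the other preparations. Alternatives were DESeq2 1.42.0, median-of-ratios scaling, other count filters (none, or at least 10 counts in every library), removal of Lars2 and transcript rows, blocks, mice 3 to 6 alone, all 32 libraries in one fit, leaving out libraries, CPM of the library total and the length of all exons joined. The members and lists were chosen with earlier results of these data known, and the correlations without the mice numbered 1 were added after seeing the data.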

Additional observations from a re-analysis of the deposited data

Results flagged for a closer look

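Single mice stood far from the others of their group for 3 of the 30 combinations of member, preparation and genotype tested, where chance flags about 1 in 20. Per2 in WT RiboZero libraries had 30.7 CPM in mouse 1, against 56.8 to 71.8 CPM in the other WT mice. Per1 in WT PolyA libraries had 212 CPM in mouse 1, against 299 to 332 CPM in the others. Both values belong to the same animal, which was also the lowest WT mouse for Per2 in PolyA (37.8 CPM) and for Per1 in RiboZero (122 CPM), where the distance did not pass the same limit. Per3 in KO RiboZero libraries had 29.9 CPM in mouse 4, against 24.6 to 26.1 CPM in the others, and in PolyA that mouse (29.6 CPM) lay beside KO mouse 2 (29.3 CPM).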

How the results depend on the processing

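Cry1 and Per2 were called higher in KO under every alternative run, 20 in RiboZero, 20 in PolyA and 15 in NoSelect, with log2 fold changes from 1.34 to 1.56 for Cry1 and from 1.07 to 1.47 for Per2, and Per1 was called under none of them. No member changed direction in its KO effect. The calls of Cry2 and Per3 depended on the model, and the cause was not tested. With DESeq2, 4 members were called in RiboZero and 4 in PolyA, as Per3 (log2 -0.48 and -0.58) and Cry2 (0.44 and 0.32) were added. DESeq2 also called more rows of the whole table. It called 976 of 16710 rows in RiboZero and 1355 of 17211 in PolyA, against 579 and 694 by edgeR. With all 32 libraries in one fit, Cry2 was called in RiboZero (0.44) and PolyA (0.35), Per3 in PolyA (-0.55), 4 members in all in PolyA, and the call of Cry2 in NoSelect was lost (0.44, adjusted p = 0.0995 by edgeR). That fit had no term for the mouse. It counted the libraries of the same animal as independent, which they are not, so its added calls carry less weight. Per3 was also called in PolyA with at least 10 counts in every library (-0.59, adjusted p = 0.0495), and Cry2 in RiboZero with mice 3 to 6 alone (0.46). The replicate number as a block added Cry2 in RiboZero (0.44, adjusted p = 0.0235) and removed it in NoSelect (0.43, adjusted p = 0.0877). A number names different animals in WT and KO, and whether these were handled together was not tested. The correlations of same-numbered WT and KO libraries ran from -0.19 to 0.25. Of the WT libraries, 1 of 6, 1 of 6 and 2 of 4 correlated best with their own number. With so few mice these values cannot decide whether a number stands for a shared batch. The mouse as a block changed no call of a member in the interaction, nor between preparations where a log2 of at least 1 was asked for. At an adjusted p alone it took the members that differed from 1 to 3 for PolyA against RiboZero and from 3 to 4 for RiboZero against NoSelect. The share of all rows that passed with the block is not given.

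Leaving out 1 library, the KO effect ranged from -0.55 to -0.34 for Per3 and from 0.36 to 0.50 for Cry2 in RiboZero, from -0.65 to -0.44 for Per3 in PolyA and from 0.36 to 0.49 for Cry2 in NoSelect. Other effects moved more in proportion, from -0.40 to -0.15 for Per1 in RiboZero, from -0.31 to -0.08 for Per1 in NoSelect and from -0.22 to -0.09 for Per3 in NoSelect. Over all rows, the number called in RiboZero was 579, and 976 with DESeq2, 372 with the replicate block, 891 with all 32 libraries, 255 with mice 3 to 6 and 380 to 644 with 1 library left out (380 without WT mouse 5). In PolyA 694 rows were called (279 higher, 415 lower), and 1355 with DESeq2, 1564 with all 32 libraries (961 higher, 603 lower) and 442 to 1066 with 1 library left out (442 without KO mouse 2, 457 without WT mouse 5, 1066 without WT mouse 2). In NoSelect 372 were called, and 878 with DESeq2, 103 with the replicate block and 148 to 472 with 1 library left out (157, 148 and 210 without WT mice 4, 5 and 6, 166 and 158 without KO mice 4 and 5).

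For the interaction, DESeq2 called 11, 13 and 9 rows for PolyA against RiboZero, PolyA against NoSelect and RiboZero against NoSelect, the mouse as a block 1 row in the first and the last pair, mice 3 to 6 alone 1 row in the last pair, and leaving out 1 mouse 0 to 2 rows in PolyA against NoSelect. Preparation differences numbered 6552 without a low-count filter and 2560 with at least 10 counts in every library for PolyA against RiboZero (4292 as reported), 7039 and 2902 for PolyA against NoSelect (4619) and 301 with the stricter filter or 485 without Lars2 and transcript rows for RiboZero against NoSelect (752). Levels per kilobase moved beyond 1 SD with the length of all exons joined in 19 of the 30 groups, for example to 13.7 for Cry2 in WT RiboZero libraries. The members had at least 292 counts in every library, and no fit at reduced depth was run. Repeats of the spread, ratios, levels, member correlations and clock list without single mice were chosen after seeing the data.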
